A study of Mus musculus with 6 samples.

Results

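The Polycomb complex genes encode the subunits of the 2 Polycomb repressive complexes, PRC2 and PRC1, and of the deubiquitinase PR-DUB. A list of 31 such genes was set out by subcomplex: 6 PRC2 core genes, 5 PRC2 accessory genes, 2 PRC1 catalytic genes, 7 canonical PRC1 genes, 9 variant PRC1 genes and 2 PR-DUB genes. Each gene was represented by the probe set that the platform annotation gives to it alone and that had the highest mean over the 6 arrays, and 30 of the 31 genes were measured in this way, among 18193 genes in all. Rybp, an adaptor of variant PRC1, was the exception, because both of its probe sets are also annotated to its pseudogene Rybp-ps. The measurements compared haploid with diploid mouse embryonic stem (ES) cells by Affymetrix arrays, 3 of each. The haploid arrays came from the lines HAP1 (passage 24) and HAP2 (passage 21), both of strain F1 CBAxB6, and HTG1 (passage 11), labelled mixed transgenic, with no transgene named. The diploid controls were replicates 1 and 2 of strain 129Sv and replicate 3 of strain 129, all labelled male. All cultures grew in 2i medium, in which the Mek and Gsk3 kinases are inhibited, and RNA was taken on day 2 after passaging. No haploid line shares its strain with a diploid control, so ploidy and strain cannot be told apart. As all diploid controls are labelled male, the same holds for any difference in sex between the groups. The diploid titles number biological replicates and give no line name, so whether these are separate lines is not stated. The p-values measure the spread between these arrays, which for the diploid group may not be a spread between lines. How many cells of the haploid cultures were still haploid when RNA was taken is not stated by the labels, and haploid ES cells are known to become diploid in culture.

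PRC2 methylates a lysine of histone H3, a mark of silent genes, and PRC1 attaches ubiquitin to another core histone. Canonical PRC1 holds a chromobox (Cbx) protein that reads the PRC2 mark and a Polyhomeotic (Phc) protein that compacts chromatin, while variant PRC1 holds Rybp or Yaf2 and can reach unmethylated CpG islands through Kdm2b without that mark. PR-DUB, made of Bap1 and an Asxl protein, removes the ubiquitin again. In ES cells these complexes keep genes of development, such as the Hox genes, at a low level while leaving them ready for use.

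The stretches before the transcription starts of 3 of the 4 genes that passed the test are shown here. Polycomb complexes act at CpG-rich starts, but whether they act at these starts was not tested. They come from RefSeq on GRCm38.p6, hold 250 bases each, run 5′ to 3′ on the strand of the gene and end at the base before the start. Capitals mark the E-box CACGTG. Kdm2b has 4 listed starts, whose windows have GC contents of 59.7%, 63.7%, 79.7% and 81.7%, and the one with 59.7%, which the RefSeq table lists first, is given.
Kdm2b, chr5:122988508-122988757, minus strand: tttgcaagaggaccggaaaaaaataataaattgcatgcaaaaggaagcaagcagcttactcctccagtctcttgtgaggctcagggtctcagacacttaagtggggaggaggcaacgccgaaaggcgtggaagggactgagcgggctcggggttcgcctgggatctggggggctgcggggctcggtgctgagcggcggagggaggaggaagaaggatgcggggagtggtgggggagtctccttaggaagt
Cbx6, chr15:79834334-79834583, minus strand: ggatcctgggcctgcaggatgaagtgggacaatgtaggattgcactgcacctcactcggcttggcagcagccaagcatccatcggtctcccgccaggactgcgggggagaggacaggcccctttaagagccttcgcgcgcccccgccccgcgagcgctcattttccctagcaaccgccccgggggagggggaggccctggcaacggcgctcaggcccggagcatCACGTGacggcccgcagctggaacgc
Asxl1, chr2:153345580-153345829, plus strand: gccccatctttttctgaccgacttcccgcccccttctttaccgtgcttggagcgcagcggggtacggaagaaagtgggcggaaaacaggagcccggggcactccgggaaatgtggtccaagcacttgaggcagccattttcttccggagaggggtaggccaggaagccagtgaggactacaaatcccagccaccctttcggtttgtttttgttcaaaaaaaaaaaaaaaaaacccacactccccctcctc
These stretches hold 12 CpG in Kdm2b, 20 in Cbx6 and 11 in Asxl1, and the count for Kdm2b depends on the start, since the 300-base windows of its 4 starts hold 18, 28, 47 and 49. Yaf2 was the other gene to pass. Over all starts in the table, 27 of the 31 genes had an entry, with 36 windows of 300 bases, and their median GC content was 65.8% against 52.7% in all 32851 windows. The median CpG count of a window was 24 in the Polycomb genes and 7 in all windows. Searched on both strands, the E-box lay in 6 of the 36 windows (16.7%, those of Rbbp4, Pcgf2, Bmi1, Cbx6, Cbx8 and Bap1) and in 7.15% of all windows. The E2F-type motif, searched as TTTCGCGC, TTTGGCGC, TTTCCCGC and TTTGCCGC, lay in 3 windows (8.33%, those of Ezh2, Suz12 and Phf19) and in 2.26% of all windows. The Ets-type motif CCGGAAGT was in 0 of the 36 windows and in 3.89% of all windows. A match describes the letters of a window and does not show that a factor binds there.

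Of the 30 measured genes, 3 were higher in the haploid lines and 1 was lower. Kdm2b and Yaf2, both of variant PRC1, and Cbx6, of canonical PRC1, rose by 0.86, 0.66 and 0.53 (log2), and Asxl1, of PR-DUB, fell by 0.51. The other 26 did not pass an adjusted p of 0.05 over all genes in limma (moderated test, 3 haploid against 3 diploid arrays, two-sided). The 4 genes are 13.3% of the members measured, and 14.9% of all genes passed the same test, 7.92% higher and 6.96% lower, so the share of Polycomb genes that passed was near that of the background. As 27 of the 30 genes lie above the median gene level of 7.48, a nearer background is that of all genes above it, of which 21.9% passed. The values of the haploid and diploid arrays did not overlap for 13 of the 30 genes (43.3%), 9 with the haploid arrays above and 4 with them below, against 37.9% of all genes and 47.5% of genes above the median level. The median difference was 0.04 over the Polycomb genes, -0.03 over all genes and 0.04 over genes above the median level. Its median size without the sign was 0.16, 0.20 and 0.26. The spread within a group was also ordinary, with a median SD of 0.13 among haploid and 0.11 among diploid arrays for these genes. It was 0.14 in both groups for all genes, and 0.15 and 0.13 for genes above the median level. These are bulk samples, in which fewer cells of a type and less RNA per cell cannot be told apart.

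**Figure D1:**
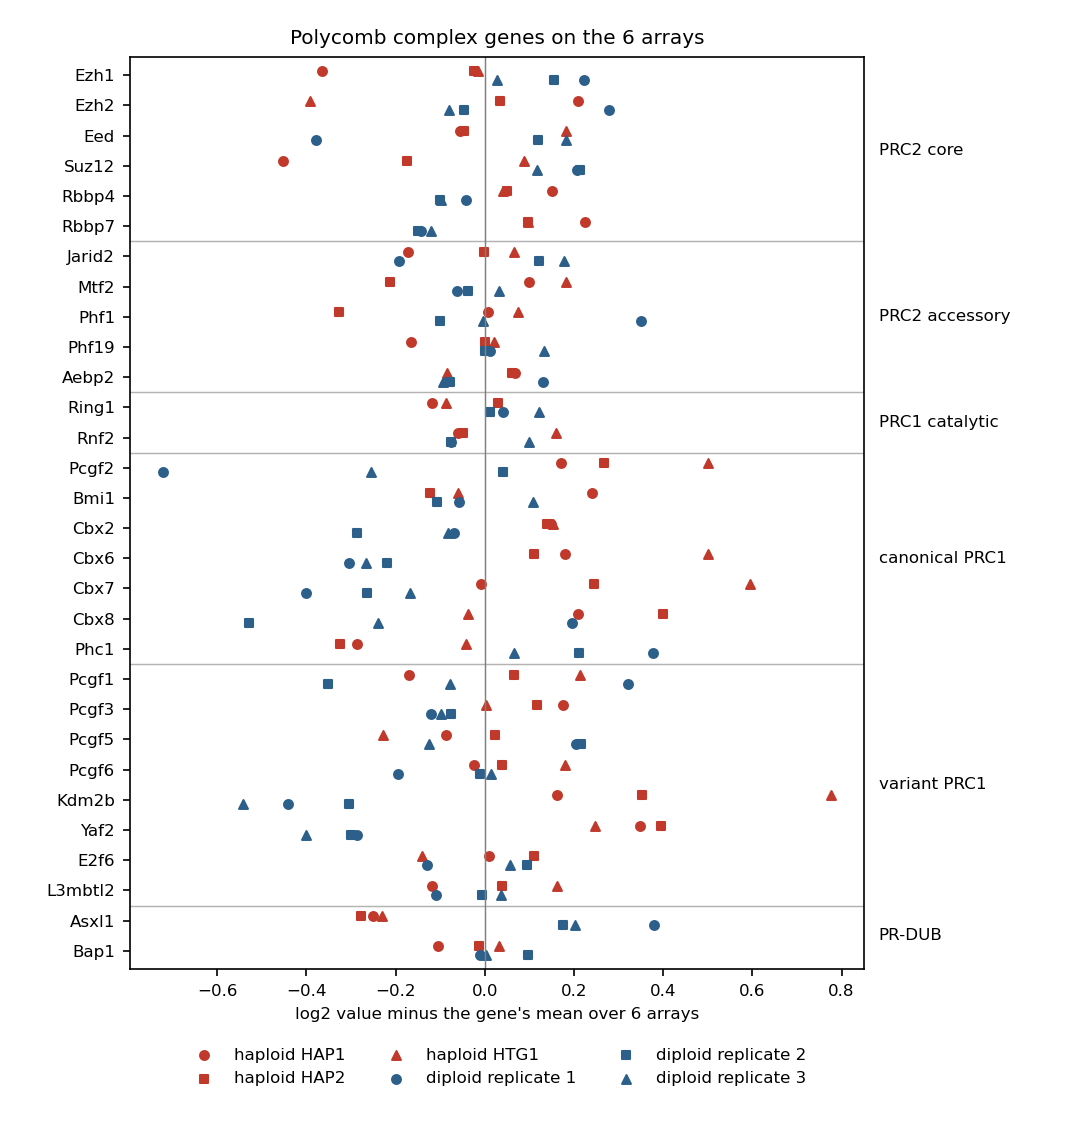
Value of each of the 30 measured genes on every array (horizontal axis, log2 value minus the gene's mean over 6 arrays), by subcomplex; red symbols are haploid lines and blue symbols diploid replicates, with the array given by its shape. The colours separate in 13 of the 30 rows, among them Kdm2b, Yaf2, Cbx6 and Asxl1, and HTG1 lies farthest to the right for Kdm2b, Cbx6 and Cbx7.

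The array medians lay between 6.31 and 6.33 (log2), which quantile normalization sets. Correlations over all genes were 0.9715 to 0.9809 between a haploid and a diploid array and 0.9859 to 0.9964 within a group. The 8 ES cell markers averaged 13.1 to 13.3 in the haploid and 13.1 to 13.2 in the diploid arrays. All 8 lay above the median gene level, and 3 of the 8 differences were negative, the lowest -0.625. The 2 called (25%, against 21.9% of genes above that level), Pou5f1 and Nanog, were higher in the haploid lines. Pou5f1 lost its call when any 1 array but diploid replicate 1 was left out. Nanog lost its call without HAP2, HTG1, diploid replicate 2 or diploid replicate 3. The 12 feeder fibroblast markers averaged 5.44 to 5.64 in the haploid and 5.99 to 6.74 in the diploid arrays, where diploid replicate 1 was the highest. Of the 12 differences, 11 were negative, with a median of -0.44. The haploid arrays lay below the diploid ones for 6 of the 12 and above for 0 (50% apart, against 37.9% of all genes). The 1 called (Col1a2, at -2.62) is 8.33% of the list, against 7.87% of all genes not above the median level, where these markers lie. The 14 markers of differentiated cells averaged 6.65 to 6.83 in the haploid and 7.01 to 7.14 in the diploid arrays, with 8 of 14 differences negative and a median of -0.06. Krt8, Sox1 and Krt18 were called lower at -2.21, -1.32 and -1.23, which is 21.4% of the list, against 14.9% of all genes. Krt18 lost its call without HAP2, HTG1 or any 1 diploid array (limma adjusted p from 0.0539 to 0.112). The part of these markers in the results on Polycomb genes was not tested.

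None of the 6 core genes of PRC2 passed the test, against 14.9% of all genes and 21.9% of those above the median level, where all 6 lie. The groups did not overlap for 4 of the 6, in both directions, against 37.9% of all genes and 47.5% of those above the median level. The median difference of the core was -0.02, with a range from -0.36 to 0.28. Ezh2, the main methyltransferase of dividing cells, had 11.95 in HAP1, 11.78 in HAP2 and 11.35 in HTG1, against 12.02, 11.70 and 11.66 in diploid replicates 1, 2 and 3. The groups overlap, HTG1 is the lowest array, and the difference of -0.10 ± 0.18 (SE) has a 95% interval from -0.52 to 0.32, which still allows a change of either sign (limma adjusted p = 0.744). Ezh1, its paralog with weaker activity, had 9.16, 9.50 and 9.51 in HAP1, HAP2 and HTG1, against 9.75, 9.68 and 9.55 in the diploid replicates. All haploid values are below all diploid ones, but HTG1 and diploid replicate 3 nearly touch, and the difference of -0.27 ± 0.13 did not pass (limma adjusted p = 0.197).

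Suz12, the scaffold on which PRC2 is built, had 11.99 in HAP1, 12.27 in HAP2 and 12.53 in HTG1, against 12.65, 12.65 and 12.56 in the diploid replicates. The diploid values are close together, while the haploid ones spread over 0.54, and the difference of -0.36 ± 0.14 did not pass (limma adjusted p = 0.144). Suz12 is the core gene with the most probe sets, and all 6 were lower in every haploid array than in every diploid one. Their differences ran from -0.998 to -0.358, and 3 of the 6 passed when each probe set was tested on its own. The brightest of them, which stands for the gene, had the smallest difference. Eed, which binds the methyl mark and so stimulates the enzyme, had overlapping values and a difference of 0.05 (limma adjusted p = 0.862). Its other, dim probe set, with a mean of 4.77, gave 0.67 with the groups apart and passed on its own (limma adjusted p = 0.0141). On the brighter one diploid replicate 1 was the lowest array, at 11.99, against 12.49 and 12.55 in diploid replicates 2 and 3, a spread named after the values were seen.

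Rbbp4 and Rbbp7 are paired histone-binding subunits that PRC2 shares with other chromatin complexes. Rbbp7 had 13.74, 13.62 and 13.62 in HAP1, HAP2 and HTG1, against 13.38, 13.37 and 13.40 in the diploid replicates. The groups are well apart relative to their spread, yet the difference is small, 0.28 ± 0.09 (limma adjusted p = 0.0771). Rbbp7 lies on the X chromosome, whose genes above the median gene level were higher in the haploid arrays by a median of 0.77. Rbbp7 was thus well below its chromosome's median. Rbbp4 had 13.57, 13.47 and 13.46 in the haploid arrays, against 13.38, 13.32 and 13.32 in the diploid ones, a difference of 0.16 ± 0.09 (limma adjusted p = 0.256). Of its other 3 probe sets, 2 gave 0.14 and 0.16 with overlapping groups. The dimmest gave 0.95, with 8.75, 8.58 and 8.35 in the haploid arrays against 7.55, 8.15 and 7.14 in the diploid ones (limma adjusted p = 0.0488 over all probe sets), so the size of any difference in Rbbp4 depends on the probe set.

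The 5 accessory genes, whose proteins steer PRC2 to its sites, did not pass by their brightest probe sets. Their differences ran from -0.16 (Phf1) to 0.05 (Mtf2), with a median of -0.07. Of the 5, 0 passed and 0 had groups apart, against 14.9% and 37.9% of all genes. Jarid2, which links PRC2 to chromatin marked by PRC1, differed by -0.07, Phf19 by -0.10 and Aebp2 by 0.03. The other probe sets of Jarid2 gave 0.29 and 0.24 with the groups apart and did not pass (limma adjusted p = 0.139 and 0.214). Those of Aebp2 ran from -0.07 to 0.74, and the highest passed on its own at a mean of 7.21 (limma adjusted p = 0.0195). Mtf2, a Polycomb-like protein that binds CpG-rich DNA, had 13.33, 13.02 and 13.41 in HAP1, HAP2 and HTG1, against 13.17, 13.19 and 13.26 in the diploid replicates. HAP2 is its lowest array and HTG1 its highest. Its 6 probe sets differed by -0.07 to 0.65 and 0 passed, with the groups apart for 2 of them, 0.45 at a mean of 11.4 and 0.65 at a mean of 7.54.

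Ring1 and Rnf2, the ubiquitin ligases of every PRC1, differed by -0.12 and 0.03, with overlapping groups (limma adjusted p = 0.423 and 0.86). Rnf2, the more active ligase in ES cells, had 11.39, 11.40 and 11.61 in the haploid arrays, against 11.37, 11.37 and 11.55 in the diploid ones, so that both groups cover nearly the same range; it was picked out after its values were seen. Its 4 other probe sets disagreed. The next brightest gave -0.16 with the haploid arrays below, and 3 dimmer ones gave 0.28, 0.39 and 0.79 with the haploid arrays above, the last 2 passing on their own (limma adjusted p = 0.0396 and 0.00434).

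In canonical PRC1, Cbx6 alone of the 7 genes passed the test (14.3%, against 14.9% of all genes). Of the 7 differences, 6 were positive, with a median of 0.38, and 5 of the 7 genes had groups that did not overlap, 4 above and 1 below, against 37.9% of all genes and 47.5% of those above the median level. Cbx6, a chromobox protein, had 9.73 in HAP1, 9.67 in HAP2 and 10.06 in HTG1, against 9.25, 9.34 and 9.29 in the diploid replicates. Every haploid value exceeds every diploid one, HTG1 by the most, and the haploid mean is 9.82 ± 0.21, the diploid mean 9.29 ± 0.04 (SD, n = 3 each). The gene rose by 0.53 ± 0.12 (SE), or 1.44-fold (limma adjusted p = 0.0321). Its other probe set gave the same picture, 0.58. The call is a narrow one, with limma adjusted p from 0.0518 to 0.105 without HTG1, diploid replicate 1, 2 or 3.

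Cbx7, known as the main chromobox protein of canonical PRC1 in ES cells, is separated from Cbx6 by 1 protein-coding gene. It had 10.26, 10.51 and 10.86 in HAP1, HAP2 and HTG1, against 9.86, 10.001 and 10.10 in the diploid replicates. The groups do not overlap, and the difference of 0.55 ± 0.16 was as large as that of Cbx6, but the haploid spread is wider and the gene did not pass (limma adjusted p = 0.0637). A dimmer probe set gave 0.69 and passed on its own (limma adjusted p = 0.0132), and the dimmest gave -0.12. Cbx2 had 8.88, 8.87 and 8.88 in the haploid arrays, against 8.66, 8.44 and 8.65 in the diploid ones, so that the haploid lines were nearly equal and all above. Its difference was 0.29 ± 0.10 (limma adjusted p = 0.0868). Its direct neighbour Cbx8, with 0 protein-coding genes between them, differed by 0.38 with overlapping groups (limma adjusted p = 0.245).

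Pcgf2 and Bmi1 are the alternative ring-finger partners of the ligase in canonical PRC1. Pcgf2 had 8.55, 8.65 and 8.88 in HAP1, HAP2 and HTG1, against 7.66, 8.42 and 8.12 in the diploid replicates. Diploid replicate 1 is well below the other diploid arrays, and the difference of 0.62 ± 0.20 did not pass (limma adjusted p = 0.0802). Bmi1 showed overlapping groups and a difference of 0.04. Phc1, a Polyhomeotic protein, ran the other way, with 11.82, 11.78 and 12.06 in the haploid arrays, against 12.48, 12.32 and 12.17 in the diploid ones. Its groups were apart, and the difference of -0.44 ± 0.13 fell short of the threshold (limma adjusted p = 0.0601). It passed under 5 of the 15 other settings that gave each gene a value, with limma adjusted p from 0.0411 to 0.0496.

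**Figure D2:**
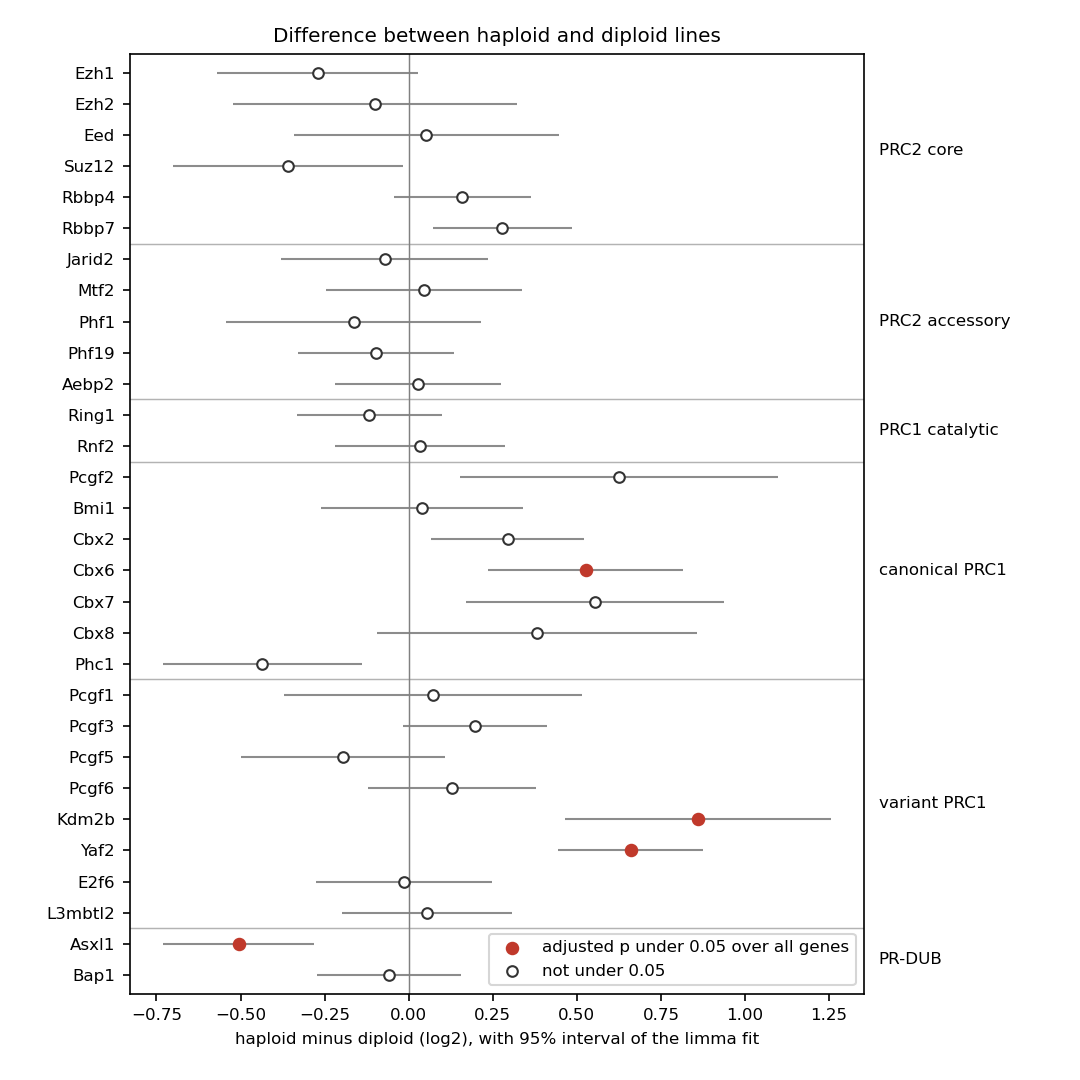
Haploid minus diploid difference of each gene (log2, horizontal axis) with the 95% interval of the limma fit; filled points passed an adjusted p of 0.05 over all genes and open points did not. Kdm2b at 0.86 is the highest point and Asxl1 at -0.51 the lowest, and all 5 accessory genes of PRC2 have intervals that include 0.

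In variant PRC1, 2 of the 8 measured genes rose and 0 fell (25%), against 21.9% of genes above the median level, where all 8 lie. The median difference was 0.10. Kdm2b, the zinc-finger protein that brings variant PRC1 to CpG islands, had 11.005 in HAP1, 11.20 in HAP2 and 11.62 in HTG1, against 10.40, 10.54 and 10.30 in the diploid replicates. All haploid values are above all diploid ones, and HTG1 exceeds the mean of HAP1 and HAP2 by 0.52. Kdm2b averaged 11.27 ± 0.31 in haploid lines and 10.41 ± 0.12 in diploid replicates (SD, n = 3 each), a rise of 0.86 ± 0.17 (SE) or 1.81-fold (limma adjusted p = 0.0184). Its second probe set had 10.48, 10.76 and 11.20 in the haploid arrays, against 10.42, 10.45 and 10.56 in the diploid ones. There HAP1 lies among the diploid values, and the difference of 0.34 did not pass (limma adjusted p = 0.254), so the rise of Kdm2b rests on 1 of its 2 probe sets. The call was also lost without diploid replicate 2 or 3 (limma adjusted p = 0.0504 and 0.0787).

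Yaf2, the paralog of Rybp that joins variant PRC1 in its place, had the lowest adjusted p of the 30 genes. It had 9.18, 9.23 and 9.08 in HAP1, HAP2 and HTG1, against 8.55, 8.54 and 8.43 in the diploid replicates. Both groups are tight and far apart, averaging 9.17 ± 0.08 in haploid lines and 8.51 ± 0.06 in diploid replicates (SD, n = 3 each). Yaf2 rose by 0.66 ± 0.09 (SE), or 1.58-fold (limma adjusted p = 0.00622), and passed in every one of the 14 alternative settings that gave it a value. Its second probe set had groups apart and a difference of 0.41, just short of the threshold (limma adjusted p = 0.0531). The 2 probe sets shared by Rybp and Rybp-ps differed by 0.31 and 0.08 without a test. The brighter of them had 12.59, 12.48 and 12.70 in the haploid arrays, against 12.56, 12.54 and 12.42 in the diploid ones, so its groups overlap.

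The ring-finger proteins that set the kind of variant PRC1 did not pass by their brightest probe sets. Pcgf3 had 10.34, 10.28 and 10.17 in the haploid arrays, against 10.04, 10.09 and 10.07 in the diploid ones, with groups apart and a difference of 0.20 ± 0.09 (limma adjusted p = 0.188). Pcgf1, the partner of Kdm2b, differed by 0.07, Pcgf5 by -0.20 and Pcgf6 by 0.13, all with overlapping groups. A dim probe set of Pcgf6, with a mean of 7.02, gave 1.23 with the groups apart (limma adjusted p = 0.0261). Averaged over its probe sets, Pcgf6 passed at 0.54 (limma adjusted p = 0.0354). E2f6 and L3mbtl2, which belong to the complex of Pcgf6, differed by -0.01 and 0.05.

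In PR-DUB, Asxl1 fell and Bap1 did not pass. Asxl1, the cofactor that activates the deubiquitinase, had 9.94, 9.91 and 9.95 in HAP1, HAP2 and HTG1, against 10.57, 10.36 and 10.39 in the diploid replicates. The haploid lines were nearly equal and all below the diploid replicates, averaging 9.93 ± 0.02 in haploid lines and 10.44 ± 0.11 in diploid replicates (SD, n = 3 each). The gene fell by 0.51 on the log2 scale (SE 0.09), 1.42-fold lower in the haploid lines (limma adjusted p = 0.0164). A second probe set had 9.73, 9.56 and 9.49 in the haploid arrays, against 9.47, 10.06 and 9.95 in the diploid ones, where diploid replicate 1 is the lowest of all. Its difference was -0.23 (limma adjusted p = 0.397), the third and dimmest probe set gave 0.38, and the mean of the 3 gave -0.12 (limma adjusted p = 0.382). The call was lost without HAP2 or diploid replicate 3 as well (limma adjusted p = 0.0573 and 0.0578). Bap1, the enzyme itself, differed by -0.06 with overlapping groups (limma adjusted p = 0.698).

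Looking at every probe set, the 30 genes had 78, of which 15 passed (19.2%), 11 higher and 4 lower, against 13.4% of all 34945 single-symbol probe sets. The 13.4% is not matched for level. By gene, 21.9% passed above the median level and 7.87% not above it. They belong to 11 genes, and 7 of the 15 have a mean below the median gene level. Of the 24 genes with several probe sets, 13 had differences of 1 sign and 11 of both. Pcgf5 is the widest case, with -0.20 for its brightest probe set and 1.69 for a dimmer one. The dimmer one had 6.84 in HAP1, 8.81 in HAP2 and 8.78 in HTG1, against 6.49, 6.61 and 6.27 in the diploid replicates. HAP1 thus lies near the diploid values, and the difference did not pass (limma adjusted p = 0.0665). Probe sets of a gene share its RNA and are not independent.

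**Figure D3:**
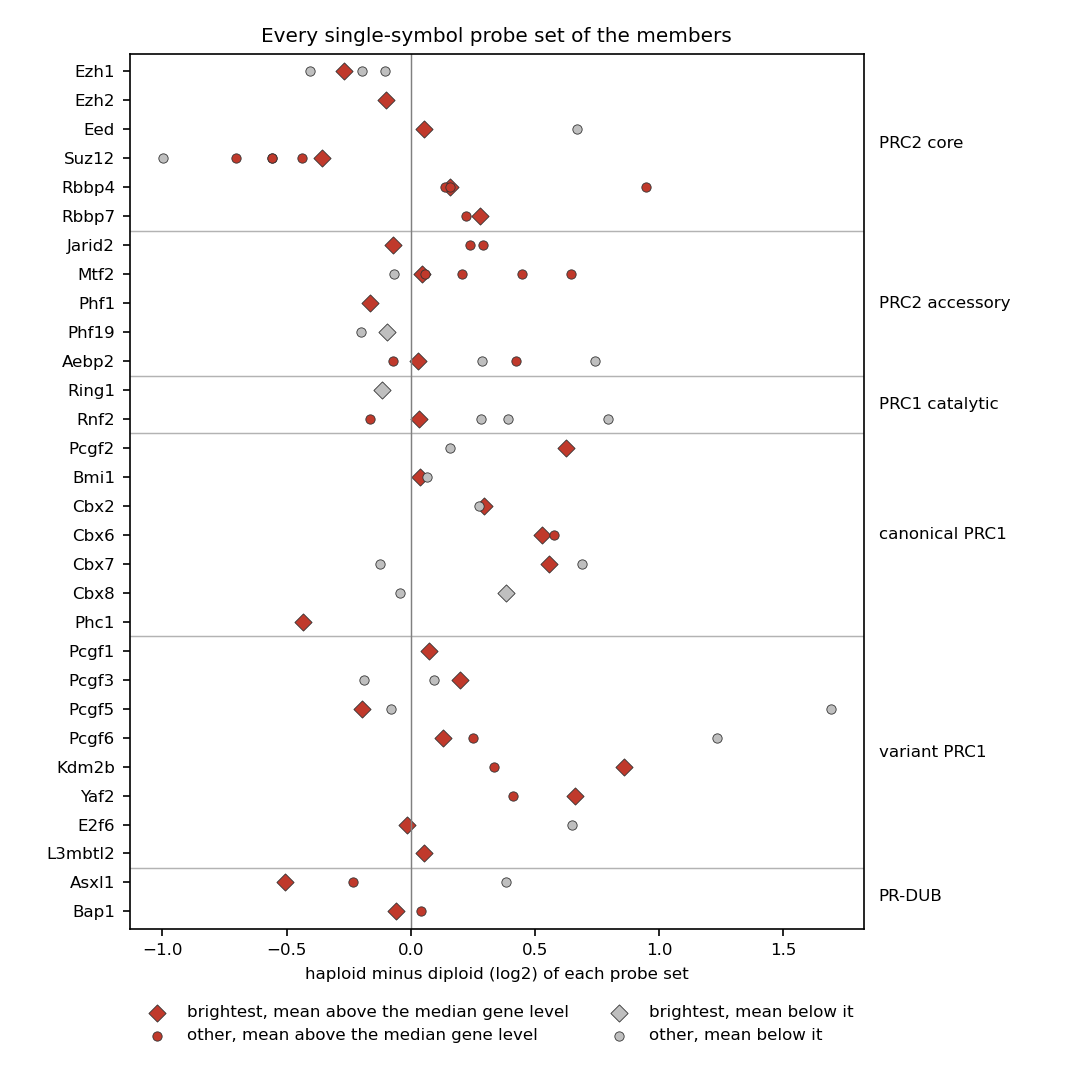
Haploid minus diploid difference (log2, horizontal axis) of every single-symbol probe set of the 30 genes; diamonds are the brightest probe set of a gene, circles the others, red those with a mean above the median gene level and grey those below it. All 6 points of Suz12 lie left of 0, and the widest scatter, in Pcgf5, comes from its other probe sets.

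The genes are unevenly placed, with 5 on chromosome 11, 5 on chromosome 6 including Rybp, 4 on chromosome 15 and 1 on the X, and whole chromosomes differed between the groups. Among genes above the median gene level, chromosome 11 had a median of -0.27, with 76.6% of 792 genes lower in the haploid arrays. The X had a median of 0.77 by the same measure. Set against their chromosome's median, 6 genes passed, 4 higher and 2 lower, where 15.1% of all genes passed. Pcgf2 and Cbx2, both on chromosome 11, then stood 0.89 and 0.56 above it (limma adjusted p = 0.0295 and 0.0133), and Rbbp7 stood at -0.49 relative to the X (limma adjusted p = 0.0146). Kdm2b at 0.78, Yaf2 at 0.58 and Asxl1 at -0.59 passed here too (limma adjusted p = 0.0263, 0.0107 and 0.0113), while Cbx6 at 0.44 did not (limma adjusted p = 0.0529). The lower values of Suz12 and Ezh1, also on chromosome 11, shrank to -0.09 and 0.00 (limma adjusted p = 0.687 and 0.992). These are the values of their brightest probe sets. The other probe sets of Suz12, with larger falls of -0.998 to -0.438, were not set against the chromosome. Yaf2, Cbx6 and Cbx7 are all on chromosome 15, whose median was 0.08.

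**Figure D4:**
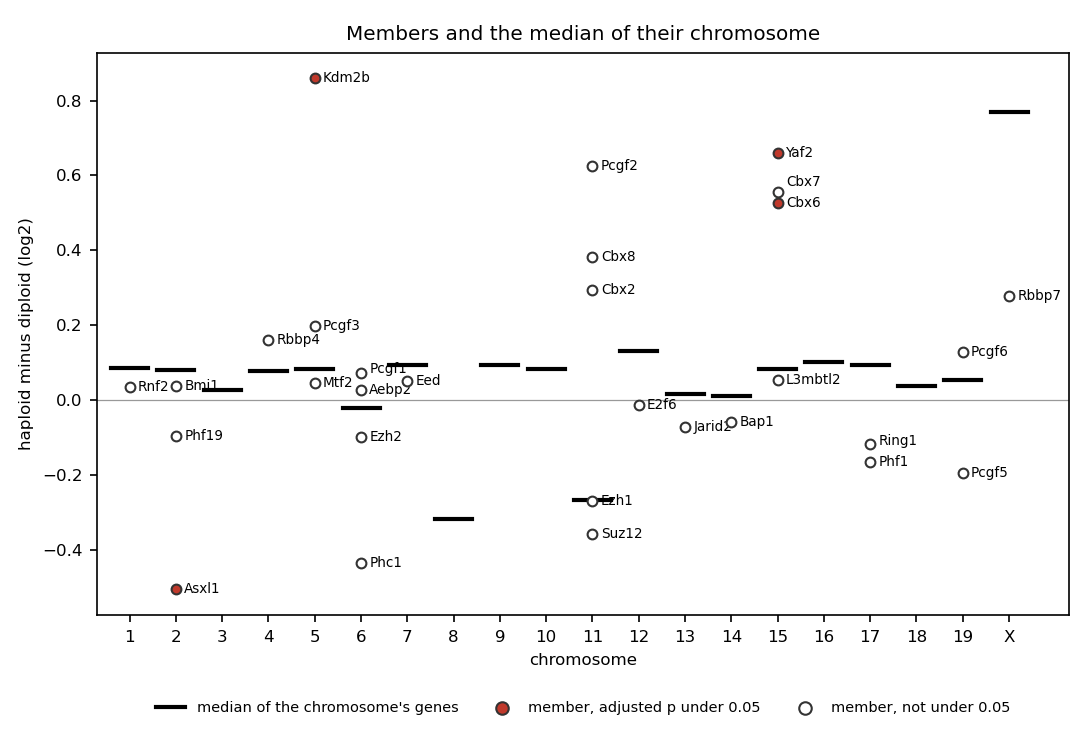
Haploid minus diploid difference (log2, vertical axis) of each measured gene by chromosome (horizontal axis). Bars are the median over the chromosome's genes above the median gene level, and filled points passed an adjusted p of 0.05. Suz12 and Ezh1 lie near the low bar of chromosome 11, while Pcgf2, Cbx8 and Cbx2 lie above it, and Rbbp7 lies below the high bar of the X.

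Chromosome 6 differed within the diploid group. Its genes above the median gene level had a median deviation of 0.30 in diploid replicate 1, against -0.14 and -0.11 in diploid replicates 2 and 3. In HAP1, HAP2 and HTG1 the median deviation was -0.02, -0.01 and 0.00. All 4 measured Polycomb genes there, picked out after their values were seen, were highest in diploid replicate 1 among the diploid arrays, by 0.34 for Ezh2, 0.22 for Aebp2, 0.24 for Phc1 and 0.54 for Pcgf1 over the mean of the other two. With each array's chromosome median subtracted, Ezh2 had 11.97, 11.79 and 11.35 in the haploid arrays, against 11.72, 11.83 and 11.77 in the diploid ones. Phc1 then had 11.84, 11.79 and 12.06 in the haploid arrays, against 12.19, 12.45 and 12.28 in the diploid ones, still apart.

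Beyond the 31 genes, other partners of the complexes held larger differences. The partner list holds 42 symbols, of which Skp1a and Skp1 name the same gene, and 38 were measured. Of these, 9 were higher and 1 lower (26.3% in all), with a median difference of 0.04. By comparison, 14.9% of all genes passed and 21.9% of those above the median level, where 32 of the 38 lie. Epop, a PRC2 accessory protein on chromosome 11, had 10.31, 10.41 and 11.11 in HAP1, HAP2 and HTG1, against 8.51, 9.04 and 9.10 in the diploid replicates. It rose by 1.73 ± 0.25 (SE), with more than a unit between the groups (limma adjusted p = 0.00699), and by 1.48 to 2.00 over the alternative settings, passing in each. Scmh1, a canonical PRC1 partner, had 8.94, 9.26 and 9.02 in the haploid arrays, against 7.11, 7.59 and 7.41 in the diploid ones. It rose by 1.70 ± 0.15 (limma adjusted p = 0.00197), and by 0.66 to 1.81 over the alternatives, again passing in each. Ogt, a sugar transferase that binds PR-DUB, and Lcor, a PRC2 partner, rose by 1.04 and 0.96 (limma adjusted p = 0.00799 and 0.0455). Ogt lies on the X and stood only 0.27 above the X median (limma adjusted p = 0.267), and Lcor lost its call in 10 settings.

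**Figure D5:**
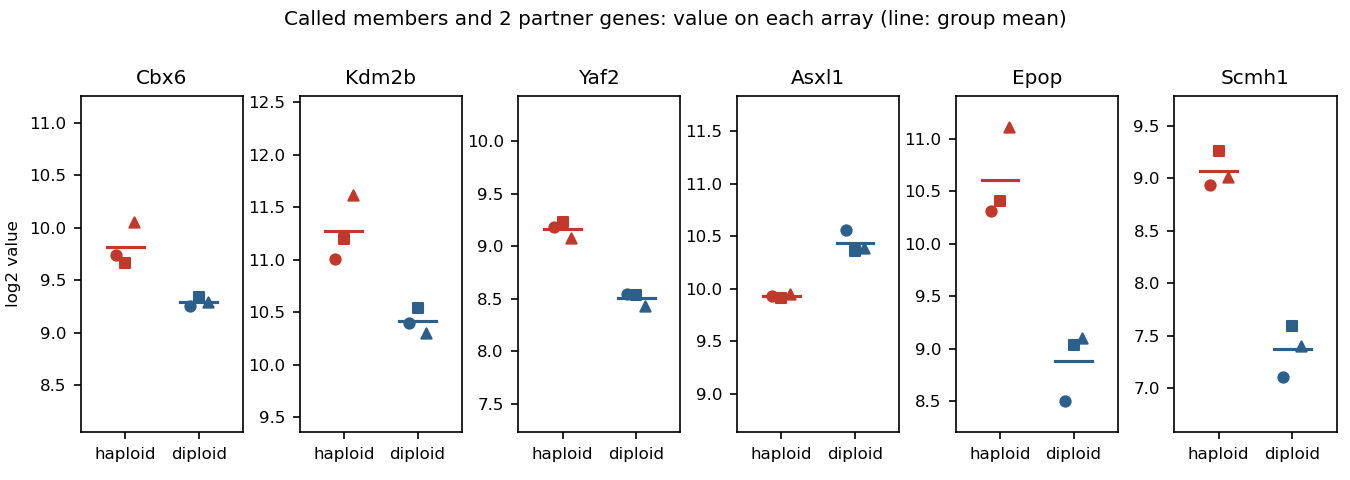
Log2 value on each array (vertical axis, spanning the same height in every panel) of the 4 called members and of the partners Epop and Scmh1, haploid lines in red on the left and diploid replicates in blue on the right; lines are group means. The gap between groups is over 1 unit in Epop and Scmh1 and smaller in Cbx6, Kdm2b, Yaf2 and Asxl1.

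The list of enzymes that write or remove opposing marks holds 27 symbols, of which Whsc1 and Nsd2 name the same gene. From this list 25 were measured, with 3 higher and 0 lower (12%), against 21.9% of genes above the median level, where all 25 lie. Kdm6a, which removes the PRC2 mark and lies on the X, had 10.61, 10.55 and 10.71 in the haploid arrays, against 9.29, 9.79 and 9.87 in the diploid ones, a rise of 0.97 ± 0.16 (limma adjusted p = 0.0111). Against the X median it stood at 0.20 (limma adjusted p = 0.405). Kmt2c, a methyltransferase of enhancers, rose by 0.76, and Paxip1, its cofactor, by 0.35 (limma adjusted p = 0.0269 and 0.042). Paxip1 lost its call in 10 settings, among them each left-out array, and Kmt2c in 4, without HTG1 or any 1 diploid array (limma adjusted p up to 0.0942).

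Genes that Polycomb is known to repress in ES cells mostly have probe sets under the median gene level, and 7.87% of all genes not above the median level passed the test. Of 39 Hox genes, 33 were measured and 0 passed, with a median difference of 0.00. The haploid arrays lay below the diploid ones for 3 and above for 0 (9.09% apart, against 37.9% of all genes). Of the 33, 30 lay under the median gene level. Hoxc9 and Hoxc13, named for the brightest signal in the list, which does not rank their RNA levels, differed by 0.03 and 0.28. Of 70 other targets, 64 were measured, with 4 higher, 2 lower (9.38%, near that background) and a median difference of 0.01; 6 of the 64 lay above the median level. Bmp4, a signalling protein, fell the furthest, with 6.39, 7.70 and 6.97 in the haploid arrays against 8.73, 9.53 and 9.78 in the diploid ones, a difference of -2.33 ± 0.38 (limma adjusted p = 0.0105). Sox1, a neural factor, fell by 1.32 on the log2 scale, and Gata3 and Gata2, factors of trophoblast and blood, rose by 1.40 and 1.30 (limma adjusted p = 0.0169, 0.0185 and 0.00891). The call of Gata3 was lost without diploid replicate 3, and that of Sox1 without HAP2 or diploid replicate 3 (limma adjusted p from 0.0563 to 0.0765).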

How the data were processed

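Total RNA from 3 haploid and 3 diploid ES cell cultures was labelled with biotin and hybridised to 1 Affymetrix array each. The deposited values are log2 intensities of 45101 probe sets, made by the authors with RMA (background correction, quantile normalization and probe summary), per the submitters' processing notes. No software or version of RMA is stated, nor whether the arrays were processed jointly. Quantile normalization makes differences relative to the bulk of genes and hides any change in total RNA.

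Symbols follow GEO's annotation of the platform: 34945 probe sets had 1 symbol, 932 several and 9160 none, and 64 control probe sets were left out. The single-symbol probe set with the highest mean stood for a gene, giving 18193 genes. A probe set annotated to both Rybp and Rybp-ps names neither, so Rybp was not tested. Levels of different probe sets are not comparable.

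Haploid and diploid arrays were set against each other in limma 3.58.1 (R 4.3.3; lmFit, eBayes, two-sided, no covariate), with Benjamini-Hochberg adjustment over all genes and a threshold of 0.05. The fit was tested on simulated data. Genes that passed, genes whose groups did not overlap and genes whose bright probe sets differed by over 0.5 are given on every array, and others by ranges; of each further list, up to 4 genes that passed with the largest differences are named, or the 2 brightest where none passed. The members and lists were chosen with earlier results of these data known. A chromosome shift is the median difference of a chromosome's genes above the median gene level, for chromosomes with at least 20 such genes. Promoter windows and chromosomes came from RefSeq on GRCm38.p6. The alternatives were other normalizations, filters, probe set rules, limma settings, chromosome shifts and leaving out each array. With 3 arrays a group, their number limits the precision.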

Additional observations from a re-analysis of the deposited data

How the results depend on the processing

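Over 15 settings that gave each gene its own value there were 446 values for the members, of which 373 kept direction and side of the threshold, 13 lost a call, 17 gained one and 43 changed sign. Yaf2 kept its call in all 14 settings that measured it (limma adjusted p from 0.00287 to 0.035). Kdm2b lost it with the mean of probe sets (0.60), without probe sets named _s_at, _x_at or _a_at (0.34), and without diploid replicate 2 or 3. Cbx6 lost it with either chromosome shift and without HTG1 or any 1 diploid array, and Asxl1 with the mean of probe sets (-0.12) and without HAP2 or diploid replicate 3. Suz12 passed with the mean of probe sets (-0.60) and without the _s_at, _x_at and _a_at probe sets (-0.70). Cbx7 passed in 3 settings, among genes above the median level, with array weights and without HAP1 (limma adjusted p from 0.0312 to 0.0471). The count of members higher, 3, ran from 1 to 4 when an array was left out (1 without diploid replicate 2 or 3), and that of members lower, 1, from 0 to 2. Of all genes, 571 to 1395 were then higher and 399 to 1082 lower, in place of 1441 and 1266, with the fewest without diploid replicate 3. The members lower were 2 with another quantile normalization, genes above the median level, the narrower probe set choice, trend and robust eBayes, array weights and both chromosome shifts. With every probe set on its own, 11 member probe sets were higher and 4 lower, and 2459 and 2228 of all. With a 1.5-fold minimum the members lower were 0 and all genes lower 728. Of the changes of sign, Rbbp7 passed in the other direction with either chromosome shift (limma adjusted p = 0.0146 and 0.0165), and Pcgf5 and E2f6 turned to well above 0 with the mean of probe sets without passing. With another quantile normalization Aebp2 was -0.0056, Rnf2 -0.012, Bmi1 -0.034 and Pcgf1 -0.0058. With the mean of probe sets Jarid2 was 0.15, Pcgf5 0.47 and E2f6 0.32. Without the _s_at, _x_at and _a_at probe sets Jarid2 was 0.24 and Bap1 0.041. With array weights Ezh2 was 0.0061, Eed -0.078, Mtf2 -0.023, Rnf2 -0.014 and Bmi1 -0.0054. With the chromosome shift subtracted Eed was -0.043, Rbbp7 -0.49, Mtf2 -0.039, Rnf2 -0.053, Bmi1 -0.041 and L3mbtl2 -0.028. With the shift taken per array Ezh1 was 2.19e-05, Eed -0.054, Rbbp7 -0.495, Mtf2 -0.026, Rnf2 -0.052, Bmi1 -0.041 and L3mbtl2 -0.019. Leaving out 1 array gave ranges of -0.23 to 0.072 for Ezh2, -0.12 to 0.16 for Eed, -0.034 to 0.16 for Mtf2, -0.012 to 0.10 for Aebp2, -0.037 to 0.092 for Rnf2, -0.072 to 0.11 for Bmi1, -0.086 to 0.25 for Pcgf1, -0.082 to 0.052 for E2f6 and -0.013 to 0.13 for L3mbtl2. The cause was not tested. No paired analysis was possible, since the titles pair no haploid line with a diploid replicate.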

Other observations

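Olig1 and Olig2, neighbouring neural factors among the Polycomb targets, were picked out after their values were seen. Olig2 had 3.47 in HAP1, 8.20 in HAP2 and 8.68 in HTG1, against 3.74, 3.49 and 4.04 in diploid replicates 1, 2 and 3, so HAP1 lies with the diploid arrays and the other haploid lines far above. The difference of 3.02 ± 1.26 (SE) did not pass (limma adjusted p = 0.155). Olig1 had 5.34, 10.08 and 9.29 in HAP1, HAP2 and HTG1, against 5.25, 5.36 and 5.79 in the diploid replicates, the same division of lines, and also did not pass (limma adjusted p = 0.142).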
